A study of Mus musculus with 6 samples.

Results

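The structural RNA rows of the deposited repeat table hold reads assigned to ribosomal RNA (rRNA), transfer RNA (tRNA), the U RNAs, and the small RNAs 7SK, 7SL, 4.5S and BC1. They were chosen by name alone: a name that contains rRNA, starts with tRNA, is the letter U followed by digits, or starts with 5S, 7SK, 7SL, 4.5S or BC1. This took 78 of 18538 rows, of which 3 are rRNA rows, 60 are tRNA rows, 11 are U rows and 4 are the remaining small RNAs. The libraries were made from total RNA of the cerebellar vermis, the midline strip of the cerebellum, of mice aged 8 wk. The control group was 3 dCas mice, and the other group was 3 LINE-1a mice, in which the series describes the retrotransposon LINE-1 as activated. The sources used here name neither the promoters and guides of these strains nor the litters of the mice. Each p-value thus sets the strain difference against the spread among 6 single libraries, which may be technical in part.

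Structural RNAs do their work as RNA and are not translated. rRNA forms the body of the ribosome, tRNA carries amino acids to it, and the spliceosomal U RNAs recognise and join the ends of introns. 7SL is the RNA of the signal recognition particle, which brings ribosomes that make secreted proteins to the endoplasmic reticulum, and 7SK holds the elongation kinase P-TEFb inactive. BC1 is a rodent RNA of neurons that is carried into dendrites and dampens translation there, and 4.5S RNA is a small rodent RNA related to the B1 repeats. Most of these RNAs lack a poly(A) tail, many are shorter than the fragments that RNA-seq libraries keep, and tRNAs carry modified bases that stop reverse transcription. Their reads are therefore a partial sample of the molecules.

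The reads of these rows cannot all be tied to 1 gene. The sequences compared here were those of transcripts only, so other copies in the genome were not searched, and no read length was used. The sequences of 4 genes that may correspond to tested rows illustrate such sharing between transcripts. They are printed 5′ to 3′ as DNA letters from GENCODE M21 on GRCm38. In the first 2, capitals mark bases that lie in a 21-base word found in the transcripts of no other gene. In the mitochondrial tRNAs, capitals mark the anticodon.
Bc1, the BC1 RNA gene (chr7:144914470-144914637, + strand): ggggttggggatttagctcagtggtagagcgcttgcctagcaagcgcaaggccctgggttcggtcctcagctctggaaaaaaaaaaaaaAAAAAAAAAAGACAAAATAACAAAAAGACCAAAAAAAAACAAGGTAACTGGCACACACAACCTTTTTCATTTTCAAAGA
Rn7sk, the 7SK gene, from base 32 to its end (chr9:78175303-78175602, - strand): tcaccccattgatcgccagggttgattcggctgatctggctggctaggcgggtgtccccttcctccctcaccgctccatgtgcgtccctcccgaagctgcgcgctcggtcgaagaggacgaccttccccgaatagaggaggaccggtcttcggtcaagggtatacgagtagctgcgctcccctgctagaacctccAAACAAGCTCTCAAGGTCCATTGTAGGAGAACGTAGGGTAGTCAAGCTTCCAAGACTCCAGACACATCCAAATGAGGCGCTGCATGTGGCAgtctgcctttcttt
mt-Ts1, a mitochondrial serine tRNA (chrM:6870-6938, - strand): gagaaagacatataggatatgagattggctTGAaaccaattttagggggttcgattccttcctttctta
mt-Tl1, a mitochondrial leucine tRNA (chrM:2676-2750, + strand): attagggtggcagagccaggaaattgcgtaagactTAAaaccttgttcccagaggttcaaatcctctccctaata

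In Bc1, 90 of 148 words (60.8%) also occur in transcripts of 1698 other genes, and all of the capitals lie in the 3′ part with the A-rich stretch and the tail after it. The 5′ part is the stretch that BC1 shares with the ID repeats, which descend from it. The letters TAGCTCAGTGG, from the A box of RNA polymerase III genes, stand at position 14 of Bc1. They occur, on either strand, in 20 of 32851 RefSeq promoter windows of the same build (0.0609%). In Rn7sk, 242 of 311 words (77.8%) occur in 62 other genes. In mt-Ts1, 0 of 49 words occur in another gene, and in mt-Tl1 6 of 55 words also occur in Cep295. The files do not explain the suffix of the rows tRNA-Ser-TCA_m_ and tRNA-Leu-TTA_m_. Their codons pair with the anticodons of mt-Ts1 and mt-Tl1, but reads from mitochondrial tRNA, from nuclear copies of mitochondrial DNA and from other serine or leucine tRNAs cannot be told apart in these rows.

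Each library gave between 420424 and 603366 reads to the repeat table, recovered as whole reads from the deposited values, and between 23483158 and 33445789 to the gene table. By 4 Y-linked genes, the 3 dCas mice and LINE-1a 3 were male and LINE-1a 1 and LINE-1a 2 female, so sex and strain are partly confounded. Purkinje and granule cell markers were present in every library, with a median log2 fold change, LINE-1a against dCas, of -0.24 over 8 Purkinje genes and 0.06 over 9 granule cell genes, of which 0 passed in limma. Choroid plexus markers moved between libraries of the same strain: the summed normalized counts of 11 markers ran from 1327 to 85978 for dCas libraries and from 1801 to 107362 for LINE-1a libraries. Of these 11, 9 had a log2 fold change above 0, and 0 passed. Forebrain markers summed to 558 to 711 in dCas and 518 to 664 in LINE-1a libraries, and brainstem markers to 3068 to 4805 and 2053 to 3582. The part of these cells in the results was not tested.

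Structural RNA made up between 5.55% and 10.5% of the repeat reads, and its share differed between mice of 1 strain by more than the strain means differed. In the dCas libraries the share was 5.55% (95% Wilson interval 5.48 to 5.62) in dCas 1, 7.01% (6.94 to 7.08) in dCas 2 and 7.66% (7.60 to 7.73) in dCas 3. Among the LINE-1a mice it was 8.03% (7.95 to 8.12) for replicate 1, 10.5% (10.4 to 10.5) for replicate 2 and 5.94% (5.87 to 6.02) for replicate 3. LINE-1a 2 was the highest, LINE-1a 3 lay inside the dCas range, and the groups overlapped. The means were 6.74% ± 1.08 (SD, n = 3) in dCas and 8.14% ± 2.26 (n = 3) in LINE-1a mice, a log2 ratio of 0.27 that was 0.05 without LINE-1a 2. Among the male libraries alone, where LINE-1a 3 is the only LINE-1a library, the log2 ratio was -0.18, a value with no replicate. The intervals cover counting error only and leave out the spread between mice. Reads copied by PCR are not independent molecules, so the intervals may be too narrow even for that error. Against the gene table, structural RNA held 874 reads per 1000000 gene reads in dCas 1, 1128 in dCas 2 and 1383 in dCas 3. For LINE-1a 1, 2 and 3 these values were 1296, 1988 and 940.1. LINE-1a 2 was again the highest and LINE-1a 3 within the dCas range, but LINE-1a 1 now lay below dCas 3. In bulk tissue, fewer cells of a type and less RNA per cell cannot be told apart. The sources used here do not say whether rRNA was removed or poly(A) RNA selected in making the libraries. The part of such a step in these shares was not tested.

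**Figure D1:**
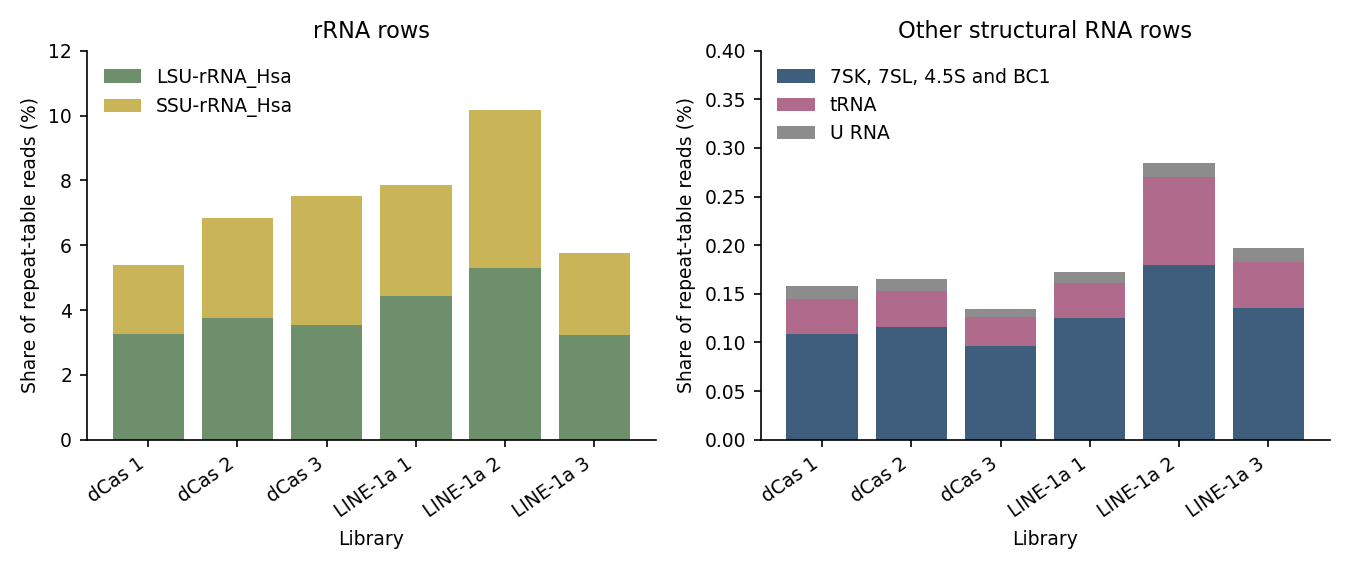
Stacked bars of the share of each library's repeat-table reads, in percent, with the large and small subunit rRNA rows on the left and the tRNA, U RNA and small RNA rows on the right, on separate axes. LINE-1a 2 is the highest library for rRNA (10.2%), tRNA (0.0914%) and the 7SK, 7SL, 4.5S and BC1 rows (0.179%).

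rRNA held between 96.7% and 98.2% of the structural reads in every library, so the total is an rRNA total. The rRNA share of repeat reads was 5.39%, 6.85% and 7.53% in dCas 1, 2 and 3, and 7.86%, 10.2% and 5.75% in LINE-1a 1, 2 and 3. Nearly all of it came from LSU-rRNA_Hsa and SSU-rRNA_Hsa, rows for the large and small subunit rRNA whose names carry a human label. LSU-rRNA_Hsa alone was the most abundant row of the whole repeat table in LINE-1a 2 (rank 1) and ranked 4 or 5 in the other libraries.

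The large subunit row had normalized counts of 10849, 13637 and 16509.9 in dCas 1, 2 and 3, and of 16459.8, 14572 and 9703 in LINE-1a 1, 2 and 3. The groups covered nearly the same range, and the lowest value belonged to LINE-1a 3. The means were 13665 ± 2831 and 13578 ± 3486, and the log2 fold change, on the scale of log2(normalized count + 1), was -0.02 ± 0.27 (SE; limma, adjusted p = 0.961). The small subunit row varied more, with 7089, 11176 and 18677 in the dCas libraries and 12812, 13403 and 7634 in the LINE-1a libraries. Both its lowest and its highest value were dCas libraries, and its log2 fold change was -0.06 ± 0.37 (limma, adjusted p = 0.940). These signs depend on the scaling: with every library given the same total the log2 fold changes were 0.27 for the large and 0.23 for the small subunit row, while the median over the rows tested was 0.05 (989 rows) by size factors and 0.34 (998 rows) with equal totals. Relative to that median, the large subunit row was at -0.07 under each scaling. With sex as a covariate the log2 fold changes were -0.47 for the large and -0.58 for the small subunit row (limma, adjusted p = 0.630 and 0.710).

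The large and small subunit rows did not keep 1 ratio, although both are cut from the same precursor. There were 1.53, 1.22 and 0.884 large subunit reads per small subunit read in dCas 1, 2 and 3, and 1.28, 1.09 and 1.27 in LINE-1a 1, 2 and 3. The group means were 1.21 ± 0.323 and 1.21 ± 0.110, and dCas 3 was the only library below 1. The 5S row, the small rRNA that RNA polymerase III makes, had 5, 9 and 5 reads in the dCas libraries and 7, 11 and 10 in the LINE-1a libraries, below the filter of a mean of 10 normalized counts.

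Of the 78 rows, 36 had a read in at least 1 library and 20 had reads in every library, while 42 rows, all of them tRNA rows, were at 0 throughout. Over the filter stood 12 rows, and 24 rows with reads fell below it, 16 of which had under 10 reads in all 6 libraries together. The filter lay between tRNA-Leu-TTA_m_, with a mean of 10.8, and tRNA-Lys-AAA, with 7.19. In limma 0 of these 12 reached a Benjamini-Hochberg adjusted p of 0.05, where 0% of the 989 repeat rows passed, and edgeR and DESeq2 on the recovered reads also called 0 of the 12. At an unadjusted p under 0.05, 1 of these 12 had a higher mean in LINE-1a mice (U2) and 0 had a lower one, beside 14.9% of the whole repeat table (9.4% higher and 5.46% lower). The log2 fold change was above 0 for 7 and below 0 for 5, with a median of 0.13 beside 0.05 over all rows tested. In 3 of the 12 the groups did not overlap, beside 19.2% of all rows tested.

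**Figure D2:**
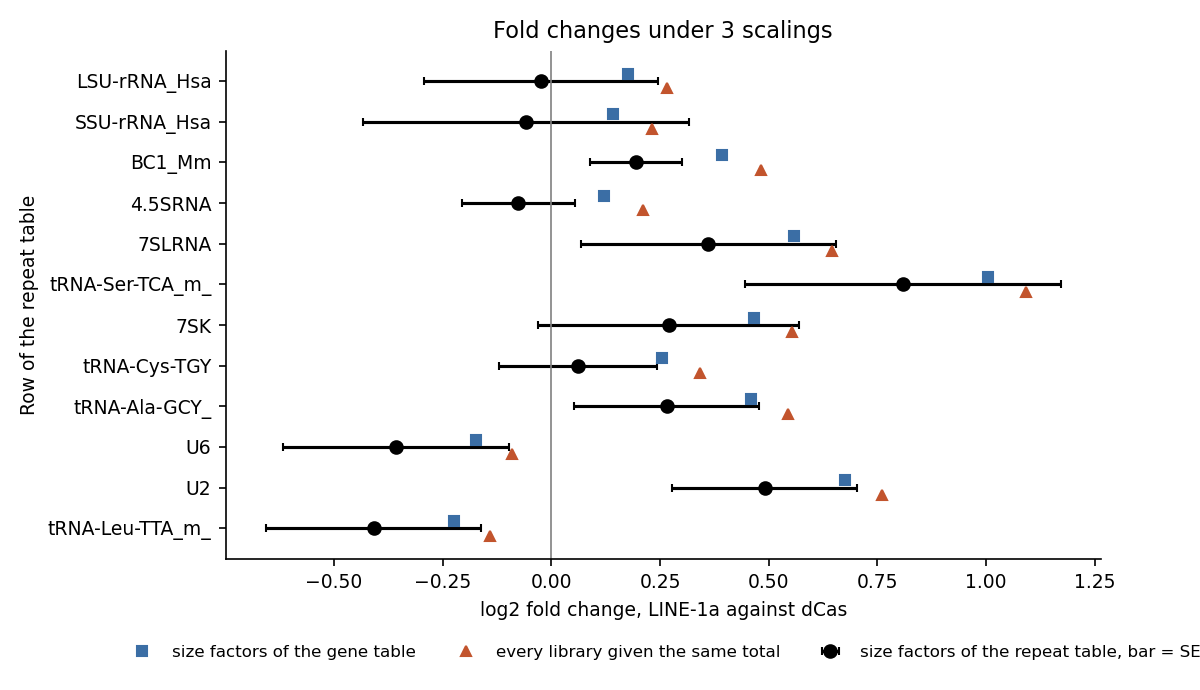
Log2 fold change, LINE-1a against dCas, of the 12 structural RNA rows tested in limma. Black circles with the standard error as a bar use the repeat table's size factors, blue squares those of the gene table and orange triangles equal totals, and both alternatives lie to the right of the circle in every row, moving LSU-rRNA_Hsa from -0.02 to 0.18 and 0.27.

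BC1 was the most abundant structural RNA row after the rRNA rows. It held 250, 274 and 274 reads in dCas 1, 2 and 3, and 275, 387 and 308 in LINE-1a 1, 2 and 3. As normalized counts these were 189, 208 and 212 in dCas, and 244, 238 and 216 in LINE-1a. Every LINE-1a library lay above every dCas library, with LINE-1a 3 close to the highest dCas value. The means were 203 ± 12.1 and 233 ± 14.8, and the log2 fold change was 0.19 ± 0.11 (limma, adjusted p = 0.325), or 0.09 with sex as a covariate.

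The ID repeats share the 5′ part of the Bc1 sequence printed above, and several of their rows were set beside BC1. The row ID had normalized counts of 105, 95.5 and 101 in dCas and 118, 115 and 111 in LINE-1a, again without overlap (log2 fold change 0.19; limma, adjusted p = 0.364). ID4_ lay at 304, 287 and 314 in dCas and at 341, 326 and 328 in LINE-1a, also without overlap. The row ID_B1 had no overlap either (log2 fold change 0.16). Among all repeat rows tested, 19.2% had no overlap. The groups overlapped for ID4 (log2 fold change 0.05) and for ID2 (0.26). None of these rows passed in limma.

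**Figure D3:**
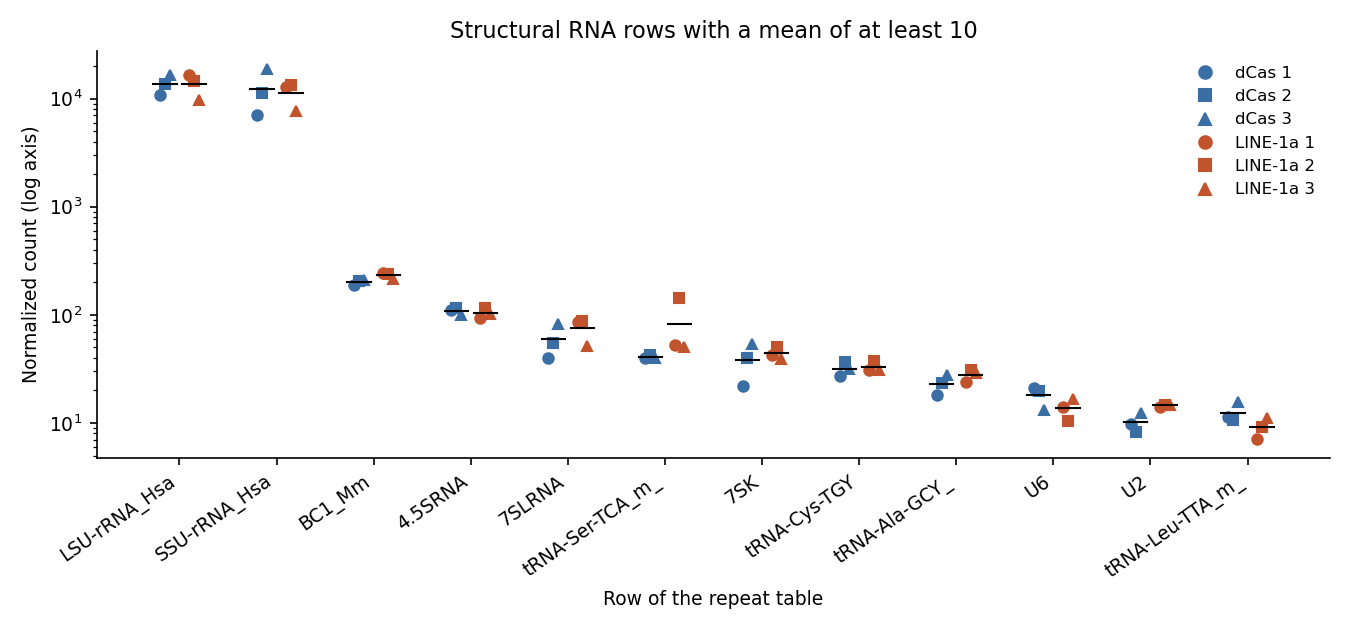
Normalized count, on a log axis, of the 12 tested structural RNA rows in each library, with dCas mice in blue, LINE-1a mice in orange, a symbol shape for each replicate number and a line at each group mean. In BC1_Mm, U2 and tRNA-Ser-TCA_m_ the groups do not overlap, and in tRNA-Ser-TCA_m_ LINE-1a 2 (144) stands apart.

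4.5S RNA showed no such split. Its normalized counts were 111, 116 and 101 in dCas 1, 2 and 3, and 93.0, 116 and 102 in LINE-1a 1, 2 and 3. The lowest and one of the highest values were both LINE-1a libraries, and the log2 fold change was -0.08 ± 0.13 (limma, adjusted p = 0.749). That sign turned to 0.21 with equal totals. There were 1.70, 1.79 and 2.11 BC1 reads per 4.5S read in dCas 1, 2 and 3, and 2.62, 2.05 and 2.11 for LINE-1a 1, 2 and 3. The groups overlapped, and LINE-1a 1 alone stood above the rest (1.87 ± 0.214 and 2.26 ± 0.314).

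7SL and 7SK varied between mice more than BC1 and 4.5S did. 7SL had normalized counts of 40.2, 54.6 and 82.9 in dCas 1, 2 and 3, and of 85.9, 87.5 and 51.9 in LINE-1a 1, 2 and 3. The female libraries LINE-1a 1 and LINE-1a 2 were the highest and LINE-1a 3 lay within the dCas range. The log2 fold change was 0.36 ± 0.29 (limma, adjusted p = 0.488), and -0.13 with sex as a covariate. The rows of the B1 repeats, which descend from 7SL, had log2 fold changes of 0.08 (B1_Mm), 0.13 (B1_Mus1) and 0.22 (B1_Mus2). The groups overlapped for B1_Mm but not for B1_Mus1 and B1_Mus2, beside 19.2% of all repeat rows tested without overlap.

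7SK had normalized counts of 22.0, 40.2 and 53.5 in the dCas libraries and 42.5, 50.5 and 39.2 in the LINE-1a libraries. All 3 LINE-1a values lay inside the dCas range, whose lowest value, in dCas 1, stood alone (log2 fold change 0.27 ± 0.30; limma, adjusted p = 0.621). Without dCas 1 the log2 fold change was -0.08. The gene table also counts Rn7sk in the same libraries, so both rows may hold the same reads. Rn7sk had 41, 67 and 116 reads in dCas and 63, 104 and 46 in LINE-1a libraries, a log2 fold change of 0.10 (limma, adjusted p = 0.911). After scaling, its normalized counts were 31.6, 49.3 and 77.4 in dCas and 50.9, 83.9 and 34.7 in LINE-1a libraries, so dCas 1 was the lowest here as well, while the highest was LINE-1a 2.

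As a group, 7SK, 7SL, 4.5S and BC1 took 0.109%, 0.115% and 0.0961% of the repeat reads in dCas 1, 2 and 3, and 0.125%, 0.179% and 0.136% in LINE-1a 1, 2 and 3. The groups did not overlap, and the log2 ratio of the means was 0.46, or 0.29 without LINE-1a 2. The share is not scaled by the size factors, and with equal totals the median of all repeat rows also lay at 0.34. BC1 gave the most reads of this group in every library.

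The tRNA rows took between 0.0300% and 0.0914% of repeat reads. The share was 0.0358%, 0.0378% and 0.0300% in dCas 1, 2 and 3, and 0.0364%, 0.0914% and 0.0474% in LINE-1a 1, 2 and 3. The highest share, in LINE-1a 2, stood apart, and LINE-1a 1 lay inside the dCas range. The log2 ratio of the means was 0.76, and 0.28 without LINE-1a 2. Beside the value of 0.76, the median of all repeat rows tested with equal totals was 0.34.

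The row tRNA-Ser-TCA_m_ carried much of this. It had normalized counts of 40.2, 42.5 and 40.3 in dCas 1, 2 and 3, and of 52.3, 144 and 50.5 in LINE-1a 1, 2 and 3. The groups did not overlap: the dCas values lay close together, LINE-1a 1 and 3 lay a little above them, and LINE-1a 2 lay far above, with 233 reads beside 52 to 72 elsewhere. The log2 fold change was 0.81 ± 0.36 (limma, adjusted p = 0.305), 0.32 without LINE-1a 2 and 0.29 with sex as a covariate. The row held 9.92 reads per 1000000 gene reads in LINE-1a 2, 3.75 times the next library, and 1.55 to 2.64 in the others. By normalized counts LINE-1a 2 was 2.75 times the next library. It made up 57.1% of the tRNA reads in LINE-1a 2 and between 28.7% and 38.6% elsewhere. Without it, the tRNA rows of LINE-1a 2 still had 7.45 reads per 1000000 gene reads, above the 3.61 to 4.85 of the other libraries.

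**Figure D4:**
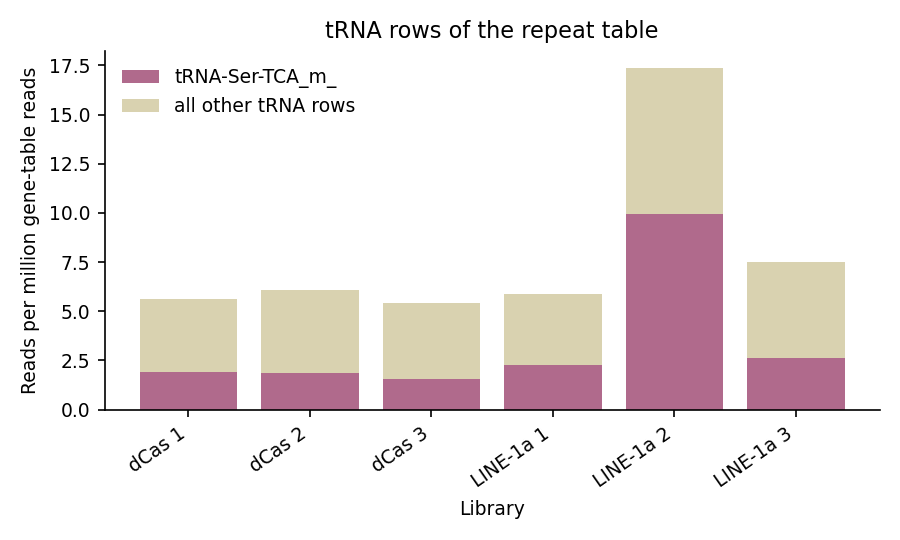
Stacked bars of the reads of tRNA-Ser-TCA_m_ and of all other tRNA rows in each library, in reads per 1000000 gene-table reads. LINE-1a 2 is highest in both, at 9.92 and 7.45, and the other libraries lie at 1.55 to 2.64 and 3.61 to 4.85.

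The other tRNA rows over the filter had overlapping groups. tRNA-Cys-TGY, a cysteine tRNA row, had normalized counts of 27.3, 36.4 and 31.8 in dCas and 31.0, 37.6 and 30.8 in LINE-1a libraries, a log2 fold change of 0.06 (limma, adjusted p = 0.865). tRNA-Ala-GCY_, an alanine row, had 18.2, 23.5 and 27.9 in dCas and 23.9, 30.8 and 28.7 in LINE-1a libraries (0.27; limma, adjusted p = 0.481). tRNA-Leu-TTA_m_, the other row with the suffix, did not move with the serine row. Its normalized counts were 11.4, 10.6 and 15.5 in dCas and 7.09, 9.24 and 11.2 in LINE-1a libraries, with LINE-1a 1 lowest and dCas 3 highest (-0.41 ± 0.25; limma, adjusted p = 0.374). Below the filter, tRNA-Lys-AAA had 7 to 15 reads and tRNA-Thr-ACA 7 to 13 reads in each library, and both were highest in LINE-1a 2. The remaining rows with reads had at most 9 in any library, and a row at 0 in LINE-1a 1, the shallowest library, allows a share of up to 0.000714%, by counting error alone.

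The U rows were sparse, with 45 to 64 reads per library in all 11 rows together. Their share was 0.0137%, 0.0121% and 0.00829% in dCas 1, 2 and 3, and 0.0107%, 0.0143% and 0.0144% in LINE-1a 1, 2 and 3, with overlap. U6, the catalytic RNA of the spliceosome, had normalized counts of 21.2, 19.7 and 13.2 in dCas and 14.2, 10.5 and 16.8 in LINE-1a libraries, a log2 fold change of -0.36 ± 0.26 (limma, adjusted p = 0.454). U2, which pairs with the intron branch point, had 9.85, 8.34 and 12.4 in dCas and 14.2, 14.8 and 14.7 in LINE-1a libraries. Here the groups did not overlap, with a log2 fold change of 0.49 ± 0.21 (unadjusted p = 0.0488; limma, adjusted p = 0.305), on 11 to 24 reads per library. The gene Rnu2-10, counted in the gene table, had normalized counts of 9.25, 10.3 and 10.7 in dCas and 11.3, 8.07 and 10.6 in LINE-1a libraries, with overlap (log2 fold change -0.02; limma, adjusted p = 0.977).

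The other U rows lay below the filter. U1, which recognises the start of introns, had 12, 10 and 8 reads in dCas 1, 2 and 3, and 1, 7 and 7 in LINE-1a 1, 2 and 3, so every LINE-1a library had fewer reads, with sums of 30 and 15. The row was not tested. The gene Rnu1a1, counted in the gene table, had 5, 18 and 15 reads in dCas and 14, 5 and 14 in LINE-1a libraries. Its groups overlapped, and its mean of 8.84 normalized counts was also below the filter. U5, which aligns exons for joining, had 2 to 7 reads in each library, and U3, the nucleolar RNA that guides the first cuts of pre-rRNA, had 2 to 5. U4 (the partner of U6), U7 (of histone mRNA processing) and the nucleolar RNAs U8, U13, U14 and U17 had at most 7 reads each over all 6 libraries.

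Among small RNA genes of the gene table, 23 had a name matching the searched patterns and 8 passed the filter, of which 0 were called in limma (background 0.146% of 15800 genes), with a median log2 fold change of -0.07. The 6 most abundant were Snord35a, Snord34, Snord33 and Snord32a, which lie inside Rpl13a, Snord73a, which lies inside Rps3a1, and Snord35b. These are nucleolar guides of rRNA methylation. Their log2 fold changes lay between -0.14 and -0.05, beside -0.09 for the host gene Rpl13a and -0.02 for the host gene Rps3a1. Without knowledge of strand and of how overlapping genes were counted, reads of guide and host cannot be told apart. With equal totals 5 of the 6 had a log2 fold change above 0 (0.01 to 0.07).

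The proteins that make, process and bind these RNAs were followed in 10 gene lists with 253 tested members. In limma 0 of the 253 passed, beside 0.146% of the gene table (0.133% higher and 0.0127% lower), and edgeR and DESeq2 also called 0. The log2 fold change was positive for 84 of the 253 and negative for 169, where 47.1% of all genes were negative. The median was -0.13 beside 0.03 for the 15800 genes. Before adjustment, 38 of the 253 had a p under 0.05 beside 15.3% of all genes, 6 of them with a higher mean in LINE-1a mice (7.94% of all genes) and 32 with a lower one (7.35% of all genes). Groups did not overlap for 69 of them, beside 22.1% of all genes. With equal totals the median of the lists was -0.02 and that of all genes 0.15, so the lists stayed about as far below the rest.

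The cytosolic tRNA synthetases, which load amino acids onto tRNA, had the lowest median, -0.42. Of 23 members, 22 were below 0 and 14 had no overlap between groups, beside 47.1% and 22.1% of all genes. At an unadjusted p under 0.05, 9 of the 23 were lower, beside 7.35% of all genes. Hars, the histidine synthetase, had normalized counts of 3597, 4007 and 3417 in dCas 1, 2 and 3, and 3099, 1803 and 2419 in LINE-1a 1, 2 and 3. All LINE-1a values lay below the dCas values, with LINE-1a 2 lowest (log2 fold change -0.62; limma, adjusted p = 0.325). Kars, the lysine synthetase, was at -0.42. Over the alternative fits, which include sex as a covariate and each library left out, Hars ran from -0.81 to -0.42. Kars ran from -0.55 to -0.31 over the same fits. Relative to the dCas mean, the synthetase median stood at -0.77 for LINE-1a 2, at -0.35 for LINE-1a 3 and at -0.10 for LINE-1a 1. It ran from -0.06 to 0.02 across dCas mice. For LINE-1a 2, the medians of the other lists ran from -0.39 (RNA polymerase III transcription) to 0.11 (7SK particle). The 10 lists together stood at -0.15 for LINE-1a 2, at -0.14 for LINE-1a 3 and at -0.04 for LINE-1a 1. LINE-1a 2 also had the most tRNA reads, 57.1% of them from tRNA-Ser-TCA_m_. A link between tRNA reads and synthetase values was not tested. Without LINE-1a 2 the median of the synthetases was -0.21, with 19 of 23 below 0. With equal totals it was -0.30, with 20 of 23 below 0, beside a median of 0.15 for all genes.

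**Figure D5:**
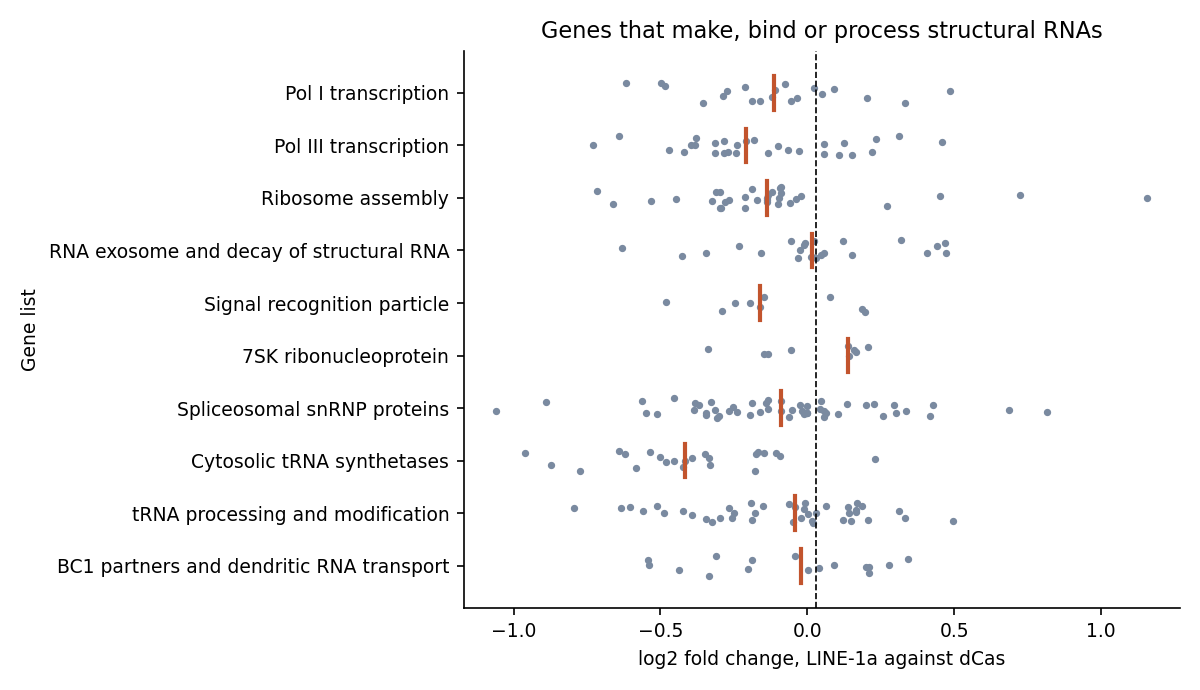
Log2 fold change, LINE-1a against dCas, of every tested gene (points) in the 10 lists of proteins that make or handle structural RNA, with an orange bar at the median of each list and a dashed line at the median of all genes (0.03). The tRNA synthetases have the lowest median (-0.42) and the 7SK particle the highest (0.14), by the size factors of the deposited gene table.

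For the polymerases, 14 of 20 genes of RNA polymerase I transcription, which makes the large rRNAs, were below 0 with a median of -0.11, which was 0.0046 with equal totals. Polr1a, its largest subunit, was at -0.62 and Taf1d, part of its promoter factor, at 0.49. Of the genes of RNA polymerase III transcription, which makes tRNA, 5S, 7SK, 7SL, U6 and BC1, 20 of 29 were below 0 with a median of -0.21. That median was -0.09 with equal totals and -0.08 without LINE-1a 2. Gtf3c1, a subunit of the factor that binds tRNA promoters, was at -0.64 and Snapc5, of the U RNA promoter complex, at -0.40. Of ribosome assembly genes 28 of 32 were below 0 (median -0.14, or -0.02 with equal totals), with the nucleolar helicase Ddx21 at -0.53. Gar1, a protein of the pseudouridine guides, was at 1.16, with 12.6 ± 4.10 normalized counts in dCas and 28.5 ± 4.17 in LINE-1a libraries. Without LINE-1a 2, Polr1a was at -0.33, Gtf3c1 at -0.35 and Ddx21 at -0.30, and with sex as a covariate Polr1a was at -0.25 and Gtf3c1 at -0.40. None of these genes passed in limma (adjusted p = 0.325 for each named here).

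Genes for the protein partners of single RNAs lay on both sides of 0. Of 9 genes of the signal recognition particle and its receptor, 6 were below 0 (median -0.16, or -0.04 with equal totals and -0.08 without LINE-1a 2), with the receptor subunit Srprb at -0.48 and Srp14, which binds the 7SL Alu domain, at -0.25. Of 9 genes of the 7SK particle, 4 were below 0 (median 0.14, or 0.26 with equal totals and 0.03 without LINE-1a 2), with the P-TEFb inhibitor Hexim2 at -0.34 and the elongation factor Aff4 at 0.17. Of 51 snRNP protein genes, 33 were below 0 (median -0.09, or 0.03 with equal totals), and Snrnp200, the helicase that unwinds U4 from U6, was at -1.06 and Sf3b3, of the U2 particle, at -0.89. Snrnp200 had 3004 ± 356 normalized counts in dCas and 1644 ± 940 in LINE-1a libraries, with a spread among LINE-1a mice much larger than among dCas mice. Without LINE-1a 2, Snrnp200 was at -0.52, Sf3b3 at -0.42, Srprb at -0.25 and Hexim2 at -0.07, and Srp14 was at -0.12 without LINE-1a 3. In the fit with a sex covariate, Sf3b3 was at -0.54, Hexim2 at -0.18, Srp14 at -0.50 and Aff4 at 0.096. In limma the adjusted p was 0.325 for Srprb, Snrnp200 and Sf3b3, 0.419 for Srp14, 0.438 for Hexim2 and 0.510 for Aff4.

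The lists of RNA decay, of tRNA processing and of BC1 partners had medians nearest 0 by the deposited size factors. The decay genes, 10 of 23 below 0, had a median of 0.02, with the exosome helicase Skiv2l2 at -0.63 and Zcchc7, which joins the adaptor of nuclear decay, at 0.44. The tRNA processing genes, 24 of 41 below 0, had a median of -0.04, with Elp3, the catalytic subunit of the Elongator complex that modifies tRNA wobble bases, at -0.79 and the ribonuclease inhibitor Rnh1 at -0.51. Of 16 genes for BC1 partners and dendritic RNA transport, 8 were below 0 (median -0.02), among them Eif4a1 at -0.54, a helicase of the initiation complex that BC1 binds. Pura, a protein that binds BC1 and travels with dendritic RNA, was at 0.34. With equal totals the medians of these lists were 0.14, 0.08 and 0.10, and in DESeq2 the decay genes were at -0.02. Without LINE-1a 2, Skiv2l2 was at -0.25, Zcchc7 at 0.28, Elp3 at -0.39, Rnh1 at -0.29 and Eif4a1 at -0.33, and Zcchc7 was at 0.26 without dCas 3. With sex as a covariate, Skiv2l2 was at -0.37, Eif4a1 at -0.27 and Pura at 0.21. By limma, the adjusted p was 0.347 for Zcchc7 and 0.325 for the other genes named here.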

How the data were processed

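Per the labels' protocols, RNeasy Fibrous Tissue columns gave total RNA and NEBNext Ultra II the libraries. The authors deposited normalized counts, a signal equal to reads divided by a size factor per library. Named in the submitters' processing notes, without roles, are DESeq2, SAMtools 1.9, bedtools 2.27.1, Bowtie2 2.2.9 and STAR 2.5.3a, with builds mm10 and GRCm38. The repeat table is a RepEnrich table, by its name. The sources used here do not give the gene counter, strand use, rRNA depletion or poly(A) selection. The table of ERV loci was not used.

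Dividing both tables by each library's smallest step gave whole reads for 100% of values, within 0.001 reads. limma-trend 3.58.1 (R 4.3.3) was run on log2(normalized count + 1) for rows with a mean of at least 10, on each whole table, as a two-sided test, p-values adjusted by Benjamini-Hochberg, threshold 0.05. The pseudocount understates changes of low rows. edgeR 4.0.16 and DESeq2 1.42.0 on the recovered reads, other pseudocounts, filters and scalings, sex as a covariate, a replicate block, and leaving out each library were alternatives. Class shares were described without a test; 3 against 3 libraries allow an exact p of no less than 0.10. limma was tested on simulated data. For the repeat table it recovered 23.2% of 1.5-fold, 71.7% of 2-fold and 98.3% of 4-fold changes. For the gene table these values were 9.09%, 45.2% and 95.8%, so changes of 1.5-fold would mostly be missed. The simulation gave these folds to 82, 60 and 58 of 989 repeat rows and to 66, 62 and 72 of 15800 genes. It drew each row independently, without shifts of whole libraries, and the rates average over rows of every level. The rates may therefore be too high for the structural RNA rows. Libraries of 1 strain differed beyond sampling noise (chi-square of 3.60 or more per degree of freedom), so none was merged with another, which does not show that the mice are independent.

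The members and the gene lists were chosen with earlier results of these data known. The text gives every row that is not tRNA, the most abundant and most changed tRNA rows, for each RNA-handling list the 2 genes of smallest p where none passed, and the 6 most abundant small RNA genes. ID and B1 repeats were set beside BC1 and 7SL as relatives. Sequence words were compared with GENCODE M21 transcripts.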

Additional observations from a re-analysis of the deposited data

How the results depend on the processing

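The structural RNA rows and the genes of the RNA-handling lists had 0 calls under every alternative run, and the smallest adjusted p of a structural row in any of them was 0.0863 (tRNA-Ser-TCA_m_). Over the whole repeat table, calls were 1 with equal totals, 1 with totals without the structural rows, 1 in edgeR and 3 in DESeq2, and 0 to 156 when single libraries were left out (156 without LINE-1a 1). The sign of the log2 fold change turned with equal totals, gene-table size factors and totals without structural rows, in that order, for LSU-rRNA_Hsa (0.27, 0.18, 0.29), SSU-rRNA_Hsa (0.23, 0.14, 0.25) and 4.5S (0.21, 0.12, 0.23), where the median of the repeat rows tested was 0.34, 0.25 and 0.36 instead of 0.05. With equal totals it also turned for Snord32a (0.045), Snord33 (0.0090), Snord34 (0.050), Snord35a (0.072) and Snord73a (0.068). With sex as a covariate it turned for 7SL (-0.13), tRNA-Cys-TGY (-0.034) and Clic6 (0.12), a choroid plexus marker at -0.50. In the male libraries alone, with 1 LINE-1a library, the log2 ratios of the all-structural and rRNA shares were -0.18 and -0.20.

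With single libraries left out, the log2 fold change ranged from -0.18 to 0.20 for LSU-rRNA_Hsa, from -0.40 to 0.30 for SSU-rRNA_Hsa, from -0.078 to 0.54 for 7SK, from 0.12 to 0.63 for 7SL, from 0.11 to 0.40 for tRNA-Ala-GCY_, from -0.56 to -0.18 for U6 and from -0.042 to 0.16 for tRNA-Cys-TGY. LSU-rRNA_Hsa turned to 0.12 without dCas 3 and to 0.20 without LINE-1a 3, SSU-rRNA_Hsa to 0.30 and 0.20, 7SK to -0.078 without dCas 1, and tRNA-Cys-TGY to -0.042 without dCas 1 and -0.030 without LINE-1a 2. Without LINE-1a 3, the ranges reached 0.058 for Snord32a, 0.033 for Snord33, 0.072 for Snord34, 0.082 for Snord35a, 0.057 for Snord35b and 0.11 for Snord73a, from -0.16, -0.20, -0.15, -0.12, -0.26 and -0.23. The log2 ratio of shares ranged from 0.052 to 0.46 for all structural RNA, 0.046 to 0.45 for rRNA, 0.28 to 1.01 for tRNA, 0.028 to 0.36 for the U rows and 0.29 to 0.56 for the small RNA group. The cause was not tested.

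Deviations of same-numbered libraries from their group means correlated at r = -0.36, 0.13 and -0.08, and those of differently numbered ones from -0.36 to 0.41. With so few libraries behind each mean, these values cannot decide whether the numbers pair mice. The replicate block gave 0 calls for repeat rows, structural rows and listed genes, and a log2 ratio of 0.25 for the structural share.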
